A study of Mus musculus with 24 samples.

Results

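Collagen chains and 4 fibroblast matrix proteins were examined in mouse brain tissue lacking Pank1 and Pank2. The 48 genes, of 50686 in the tables, were taken by name. They are the 44 protein-coding genes for collagen chains together with Lum, Dcn, Bgn and Mgp, and they comprise 11 fibrillar collagens, 6 basement membrane collagens, 27 other collagens and 4 matrix proteins. Polyadenylated RNA was sequenced with strand kept, and the tissue is named Back left brain in the labels, with C57BL/6 as the strain. Mice of the genotype Pank1-/-Syn-Pank2-/-, called dKO, were compared with wild type (WT) mice. Pantothenate kinases start coenzyme A synthesis. The labels do not spell out Syn, nor the cells or exons in which Pank2 is lost. The labels give males and females at day 10 and day 20, with 3 libraries for each combination of genotype, sex and day, 24 in all. Whether every library is a separate animal is not stated, so the p-values measure the spread between these libraries. One dKO male day 10 library held 45964 gene counts, of which 56 fell on the 48 genes, and it was left out, so that 23 libraries remained and dKO at day 10 has n = 5.

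Collagens are secreted proteins built from 3 chains wound into a triple helix. In a helix glycine recurs in a fixed rhythm, written Gly-X-Y. Fibrillar collagens assemble into banded fibrils, type IV collagens form the sheet of basement membranes, and the remaining types decorate fibrils, form fine networks or span the plasma membrane. In the brain, fibrillar collagens are known mainly from the meninges and from fibroblasts along larger vessels, and type IV collagens from the basement membrane around the capillaries. Lum (lumican), Dcn (decorin) and Bgn (biglycan) are small leucine-rich proteoglycans that bind collagen fibrils or matrix growth factors, and Mgp (matrix Gla protein) inhibits calcification.

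The classes differ in how long the Gly-X-Y repeat runs in their coding sequences. Counting runs of at least 3 units in which the first codon of each 3 encodes glycine, the longest run held 216 to 344 units (median 338) in the fibrillar collagens, 39 to 66 (median 43.5) in the basement membrane collagens and 23 to 113 (median 45) in the other collagens. Fibrillar chains held 2 to 5 such runs, and type IV chains 23 to 27. No run was found in the 4 matrix proteins. The stretches printed here, from GENCODE M21 transcripts on GRCm38, show an unbroken repeat in Col3a1 (codons 680 to 709), a repeat with 2 codons inserted in Col4a1 (codons 212 to 237) and a repeat with 3 codons inserted in Col15a1 (codons 614 to 640). They were chosen because these chains stand for the 3 classes and differ in how far they fell at day 20. Capitals mark the glycine codon that opens each unit, and a gap of more than 6 small letters marks the interruption.
Col3a1: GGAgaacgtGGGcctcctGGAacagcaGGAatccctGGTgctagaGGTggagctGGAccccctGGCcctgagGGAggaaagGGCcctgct
Col4a1: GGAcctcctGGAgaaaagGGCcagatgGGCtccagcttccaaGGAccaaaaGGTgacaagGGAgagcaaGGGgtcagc
Col15a1: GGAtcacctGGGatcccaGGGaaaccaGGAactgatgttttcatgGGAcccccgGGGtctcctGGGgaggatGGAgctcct

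Promoter windows were read for the collagen chains with the most negative and most positive change at day 20. These are the 120 bases before the RefSeq start on GRCm38.p6, on the strand of the gene, chr1:45311418-45311537 (plus strand) for Col3a1 and chr9:20815068-20815187 (minus strand) for Col5a3. Capitals mark TATAAA in the former and GGGCGG, read on either strand, in the latter.
Col3a1: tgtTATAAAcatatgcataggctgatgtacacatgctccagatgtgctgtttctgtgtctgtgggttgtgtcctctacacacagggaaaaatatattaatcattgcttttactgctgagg
Col5a3: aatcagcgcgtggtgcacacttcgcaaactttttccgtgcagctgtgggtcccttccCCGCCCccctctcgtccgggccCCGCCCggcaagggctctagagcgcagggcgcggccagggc
Of the 48 genes, 36 had such a window. TATAAA on either strand was in 3 of them (8.33%), Col3a1, Col10a1 and Col17a1, against 6.34% of 32851 windows. CCAAT was in 5 (13.9%) against 21.3%, and GGGCGG in 18 (50%) against 26.5%. The sets are unlike. Each of the 36 genes gave a single window, at the start nearest its GENCODE start, while the 32851 are all windows available, without selection by build or start. The nearest start lay 49344 bases from the GENCODE start for Col25a1, 1408 for Col27a1 and 804 for Col1a2. It lay at most 299 bases away for the other genes. A match describes these letters and no binding site. The 6 type IV genes lie in 3 head-to-head pairs, with starts 21 bases apart for Col4a1 and Col4a2 on chromosome 8, 72 for Col4a3 and Col4a4 on chromosome 1, and 1309 for Col4a5 and Col4a6 on chromosome X.

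The 23 libraries held 9191988 to 44738612 gene counts, so that 1 count was 0.0224 to 0.109 CPM (counts per 1000000 gene counts) before TMM scaling. The CPM of genes given here were scaled by edgeR's TMM factors. Pank1 was at 6.71 to 8.87 CPM in the 11 dKO libraries and 19.5 to 26.7 CPM in the 12 WT libraries. Pank2 was at 38.5 to 52.1 CPM in dKO and 46.3 to 61.3 CPM in WT, and these whole-gene counts do not test the deleted part. Summed markers of neurons and astrocytes were at least 1121 and 1391 CPM in every library, so the labelled tissue holds brain cells. One library stood apart, dKO male day 10 replicate 2. Ttr, the transthyretin gene that marks the choroid plexus epithelium, was at 1.90 CPM in it and at 232 to 579 CPM in the 10 other libraries of day 10. The same library was the highest or lowest of the 11 for 21 of the 48 genes, against 3 to 19 for each of the others. Col25a1 was at 150 CPM in it against 36.8 to 73.3, Col16a1 at 50.8 against 27.2 to 37.1, and Col18a1, the collagen that yields endostatin, at 31.9 against 55.9 to 91.9. For the 48 genes over both sexes, counts of calls at day 10 and with age in dKO are therefore also given without it. So are the changes of the called genes named there. Calls and changes of marker genes are given with it only.

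**Figure D1:**
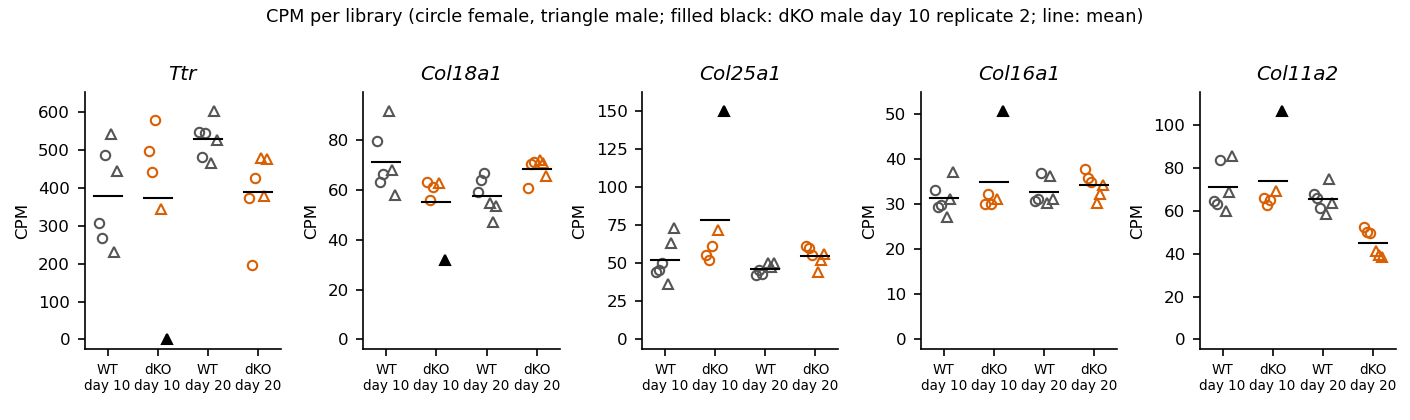
CPM of Ttr and 4 collagens in each of 23 libraries (vertical axis) by genotype and day (horizontal axis), with circles for females, triangles for males and a line at the mean. The black triangle, dKO male day 10 replicate 2, lies at 1.90 CPM for Ttr and above every other library for Col25a1 (150 CPM), Col16a1 (50.8 CPM) and Col11a2 (107 CPM).

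The first comparison asked how dKO differed from WT at day 20. Most collagens that changed were lower in dKO, among them Col3a1 and Col1a1, chains of the fibrils of soft connective tissue, and so was Lum. Col5a3 and Mgp went the other way, at 3.30-fold and 2.17-fold the WT level. In edgeR's quasi-likelihood test with Benjamini-Hochberg adjustment over 21657 genes, called at an adjusted p under 0.05, 19 of the 48 genes fell, 5 rose and 24 were not called. Over all genes tested 38.0% were called, 18.8% higher and 19.2% lower. All 48 genes passed the filter on low counts, although 2 had a mean under 1 CPM at day 20. By class, 6 fibrillar collagens fell and 1 rose (median log2 change -0.49), 4 basement membrane collagens fell (median -0.22), 6 other collagens fell and 3 rose (median 0.05), and 3 matrix proteins fell and 1 rose (median -0.53). The median over all genes was -0.00029. In this mixed tissue, fewer cells of a type and less RNA per cell cannot be told apart.

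**Figure D2:**
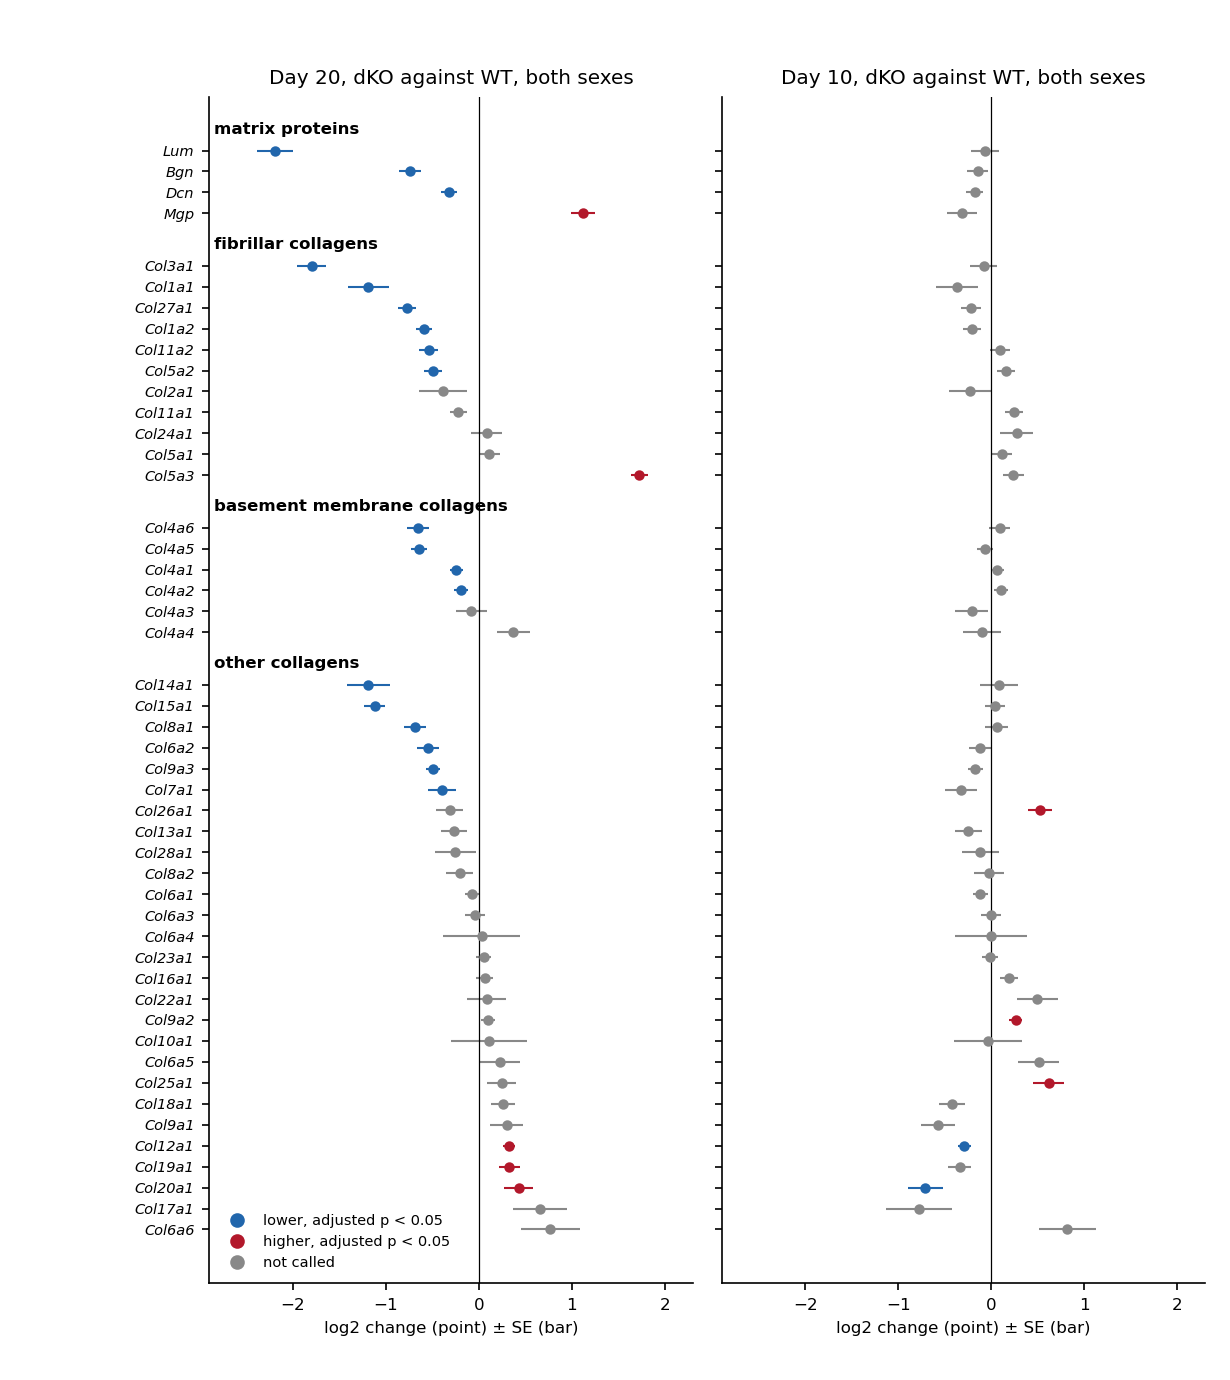
Log2 change of dKO against WT (horizontal axis, points, with bars for the SE) for the 48 genes in 4 classes (vertical axis), at day 20 on the left and day 10 on the right, over both sexes. At day 20 Lum (-2.19) and Col3a1 (-1.80) lie farthest left and Col5a3 (1.72) farthest right, and at day 10 5 genes are coloured as called.

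Among the fibrillar collagens, Col3a1 (ENSMUSG00000026043, chromosome 1, 45311538 to 45349706, plus strand on GRCm38) showed the largest fall. It ran from 8.10 to 18.0 CPM (median 10.2) in the 6 dKO libraries of day 20 and from 34.2 to 43.1 CPM (median 38.2) in the 6 WT libraries. The groups did not overlap, and the log2 change was -1.80 ± 0.16 (SE, adjusted p = 1.38e-07). Col1a1 (chromosome 11, 94936224 to 94953042), the main chain of type I collagen, ran from 15.4 to 26.2 CPM (median 18.2) against 30.6 to 66.3 CPM (median 42.2). Every dKO library was lower than every WT library, and the log2 change was -1.19 ± 0.23 (adjusted p = 0.000576). Its partner Col1a2 (chromosome 6, 4504814 to 4541544) ran from 43.9 to 55.5 CPM (median 47.6) against 61.5 to 90.3 CPM (median 72.3), a log2 change of -0.59 ± 0.09 (adjusted p = 3.17e-05). The pair that forms 1 protein thus differed in its estimates, -1.19 and -0.59, and the difference between the 2 genes was not tested.

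Col27a1 (chromosome 4, 63214004 to 63334991), a fibrillar collagen known from cartilage, ran from 9.88 to 20.7 CPM (median 13.0) in dKO and 20.2 to 25.9 CPM (median 22.9) in WT. The groups overlapped by a single dKO library, female replicate 3, and the log2 change was -0.78 ± 0.10 (adjusted p = 1.6e-06). Col11a2 (chromosome 17, 34039437 to 34066685), a chain of type XI collagen, ran from 38.6 to 52.2 CPM (median 45.5) against 58.3 to 74.7 CPM (median 64.8), with no overlap and a log2 change of -0.54 ± 0.10 (adjusted p = 0.000286). Col5a2, a chain of the type V collagen that initiates fibrils, fell by 0.49 on the log2 scale. Col2a1 (-0.39), Col11a1 (-0.22), Col24a1 (0.08) and Col5a1 (0.11) were not called.

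Col5a3 (ENSMUSG00000004098, chromosome 9, 20770050 to 20815067, minus strand), another chain of type V collagen, was the only fibrillar gene that rose in this test. The 6 dKO libraries ran from 33.4 to 51.7 CPM (median 43.2) and the 6 WT libraries from 11.3 to 13.8 CPM (median 12.8). All dKO libraries were above all WT libraries, and the log2 change was 1.72 ± 0.09 (adjusted p = 8.69e-12). The 3 type V chains therefore went in different ways, Col5a1 at 0.11 ± 0.11 without a call, Col5a2 at -0.49 ± 0.10 and Col5a3 at 1.72 ± 0.09.

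**Figure D3:**
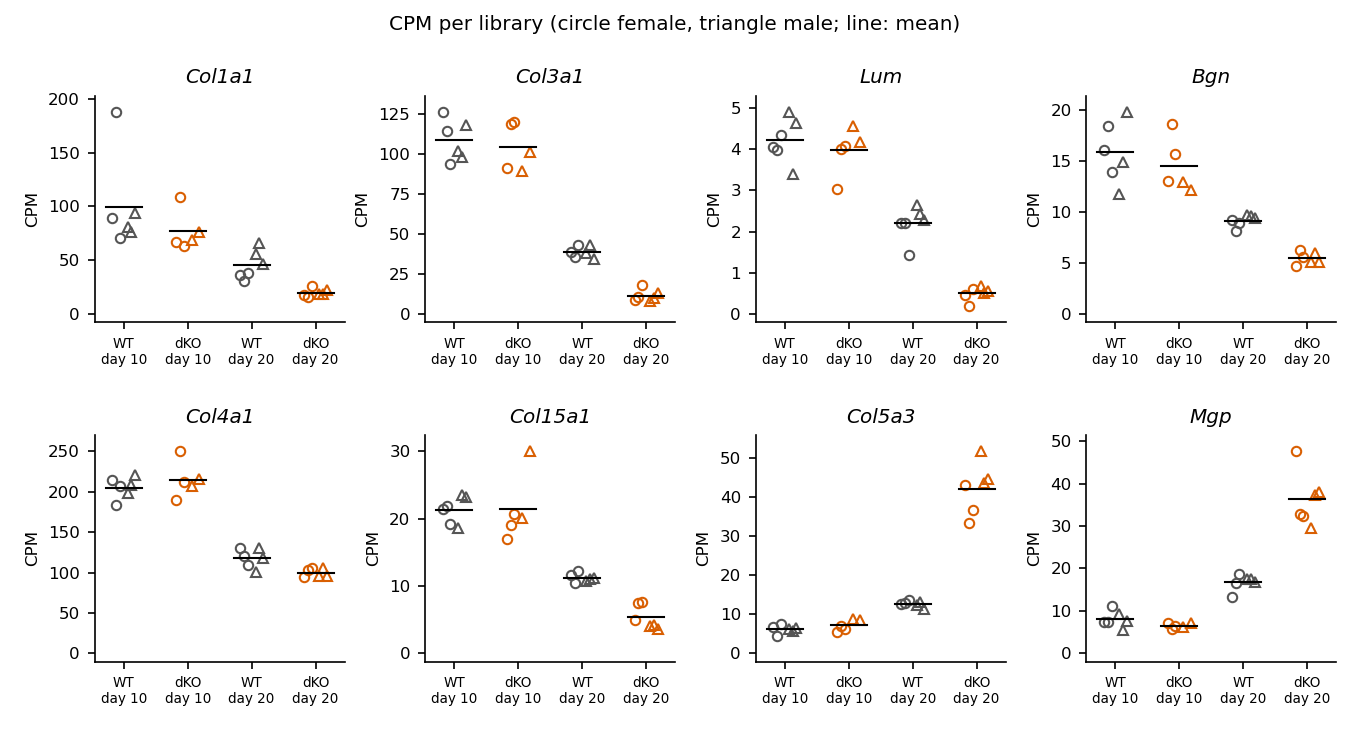
CPM in each of 23 libraries (vertical axis, starting at 0 for each gene) for 8 genes, by genotype and day (horizontal axis), with circles for females, triangles for males and a line at the mean. At day 20 the dKO libraries of Col3a1 (8.10 to 18.0 CPM) lie below those of WT (34.2 to 43.1 CPM), and those of Col5a3 (33.4 to 51.7 CPM) lie above those of WT (11.3 to 13.8 CPM).

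Of the 6 basement membrane collagens, 4 fell. Col4a1 (ENSMUSG00000031502, chromosome 8, 11198423 to 11312826), which with Col4a2 forms the common type IV network, ran from 94.1 to 105 CPM (median 99.5) in dKO and 101 to 131 CPM (median 119) in WT. The groups overlapped, and the log2 change was -0.24 ± 0.07 (adjusted p = 0.00737). Col4a2 (chromosome 8, 11312805 to 11449287) ran from 76.7 to 87.7 CPM (median 85.7) against 81.3 to 112 CPM (median 96.7), with a log2 change of -0.19 ± 0.07 at the edge of the threshold (adjusted p = 0.0458, and lost in 17 of 31 alternatives). Col4a5 (chromosome X, 141475385 to 141689234), a chain of a second type IV network, ran from 11.4 to 14.8 CPM (median 11.6) against 17.7 to 20.7 CPM (median 19.3), a log2 change of -0.64 ± 0.08 (adjusted p = 2.6e-06). Its neighbour Col4a6 (chromosome X, 141165403 to 141474076) ran from 2.53 to 3.95 CPM (median 3.03) against 4.05 to 5.37 CPM (median 4.89), a log2 change of -0.66 ± 0.12 (adjusted p = 0.000125). Neither X-linked gene had overlapping groups. The remaining pair, Col4a3 (-0.08) and Col4a4 (0.37), was not called, so that the 2 genes of each head-to-head pair had the same call.

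Of the 27 other collagens, Col15a1 and Col14a1 changed most. Col15a1 (ENSMUSG00000028339, chromosome 4, 47208161 to 47313167), which lies next to the basement membrane of vessels, ran from 3.68 to 7.63 CPM (median 4.58) in dKO and 10.4 to 12.2 CPM (median 11.1) in WT, a log2 change of -1.12 ± 0.11 (adjusted p = 1.05e-07). Its closest relative Col18a1 was not called (0.26). Col14a1 (chromosome 15, 55307750 to 55520803), a collagen that attaches to fibril surfaces, ran from 0.494 to 1.18 CPM (median 0.935) against 1.79 to 2.70 CPM (median 1.96), a log2 change of -1.19 ± 0.23 (adjusted p = 0.000354). With counts of both strands its change was -0.75. Groups overlapped for neither gene.

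Col8a1 (chromosome 16, 57624258 to 57754737), a short-chain collagen of vessel walls, ran from 5.52 to 7.85 CPM (median 6.25) against 9.64 to 11.7 CPM (median 10.4), with a log2 change of -0.68 ± 0.12 (adjusted p = 8.84e-05). Col9a3 (chromosome 2, 180597790 to 180622189), a chain of type IX collagen, ran from 33.6 to 44.2 CPM (median 39.1) against 50.0 to 59.4 CPM (median 54.6), with a log2 change of -0.49 ± 0.08 (adjusted p = 3.82e-05). In both genes the groups were separate. The 2 other type IX chains were not called at day 20, with log2 changes of 0.30 for Col9a1 and 0.10 for Col9a2. Col6a2 (-0.55) and Col7a1 (-0.40, lost in 17 of 31 alternatives) also fell, while the 5 other type VI chains were not called. Col6a1, which forms the common type VI molecule with Col6a2, was at -0.07 ± 0.08.

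The 3 rises among the other collagens were small. Col12a1 (chromosome 9, 79598991 to 79718831), which binds fibril surfaces, ran from 32.7 to 44.4 CPM (median 41.6) in dKO and 29.0 to 34.3 CPM (median 32.9) in WT, a log2 change of 0.33 ± 0.07 (adjusted p = 0.000394). Col19a1 (chromosome 1, 24261890 to 24587472), known from neurons, ran from 34.5 to 41.2 CPM (median 37.2) against 21.6 to 33.7 CPM (median 30.9), a log2 change of 0.33 ± 0.11 (adjusted p = 0.0297). Col20a1 (chromosome 2, 180986535 to 181018363) ran from 13.9 to 32.7 CPM (median 19.1) against 13.8 to 16.2 CPM (median 15.1), a log2 change of 0.43 ± 0.16 (adjusted p = 0.0385). The highest dKO value of Col20a1 came from male replicate 1. Without that library, and likewise without WT female replicate 1 or WT male replicate 2 of day 20, 3 of the 48 genes were called higher in place of 5. Only Col19a1 of the 3 had groups that did not overlap. The 18 other collagens that were not called lay between -0.31 (Col26a1) and 0.77 (Col6a6).

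Among the matrix proteins, Lum (ENSMUSG00000036446, chromosome 10, 97565128 to 97572703) had the largest fall of the 48 genes. The dKO libraries ran from 0.194 to 0.679 CPM (median 0.525) and the WT libraries from 1.43 to 2.65 CPM (median 2.25), a log2 change of -2.19 ± 0.20 (adjusted p = 2.14e-08). Lum had only 5 to 15 counts in each of these dKO libraries and 31 to 107 in the WT libraries. Its neighbour on the same strand, Dcn (chromosome 10, 97479609 to 97518143), ran from 11.1 to 16.0 CPM (median 14.2) against 14.98 to 20.9 CPM (median 17.2), a log2 change of -0.32 ± 0.09 (adjusted p = 0.00554). The groups were separate for Lum and overlapped for Dcn. Bgn (chromosome X, 73483602 to 73495933) ran from 4.70 to 6.25 CPM (median 5.35) against 8.09 to 9.72 CPM (median 9.30), a log2 change of -0.74 ± 0.12 (adjusted p = 3.53e-05).

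Mgp (ENSMUSG00000030218, chromosome 6, 136872435 to 136875823, minus strand) rose. It ran from 29.6 to 47.6 CPM (median 35.0) in dKO and 13.2 to 18.6 CPM (median 17.2) in WT, with no overlap and a log2 change of 1.12 ± 0.13 (adjusted p = 1.65e-06). Per kilobase of exon, Mgp was at 30.6 CPM in dKO, the highest mean level of the 48 genes there, followed by Col4a1 at 13.4 and Col4a2 at 12.7. In WT at day 20 the same 3 genes were at 14.1, 15.8 and 14.5 CPM per kilobase, and Col9a3 at 14.2, with Col4a1 the highest of the 48.

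Groups did not overlap for 13 genes lower in dKO and 3 higher, where 20.1% of all genes tested had no overlap (10.3% lower, 9.79% higher). The 13 were Col1a1, Col1a2, Col3a1, Col4a5, Col4a6, Col5a2, Col8a1, Col9a3, Col11a2, Col14a1, Col15a1, Bgn and Lum, and the 3 were Col5a3, Col19a1 and Mgp. Fibrillar collagens made up 34.2% ± 2.34 (SD, n = 6) of all collagen CPM in WT at day 20 and 29.0% ± 1.17 (n = 6) in dKO, with ranges of 31.5 to 37.8% and 27.9 to 30.8%. Basement membrane collagens made up 24.3% ± 1.60 and 23.2% ± 0.727, and other collagens 41.4% ± 2.39 and 47.8% ± 0.814. These shares describe the libraries and were not tested. In level, other collagens summed to 403 to 439 CPM in WT and 414 to 446.5 CPM in dKO. Fibrillar collagens summed to 316 to 413 CPM in WT and 246 to 296 CPM in dKO. Basement membrane collagens summed to 210 to 274 CPM and 193 to 218 CPM. Counting Col15a1 and Col18a1 with the basement membrane collagens gave 5 of 8 lower and none higher.

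At day 10 the genes differed little between the genotypes. Over both sexes 3 of 48 were called higher and 2 lower, where 4.99% of all genes tested were called (3.23% higher, 1.76% lower). No fibrillar collagen, basement membrane collagen or matrix protein was among them, with medians of 0.09, -0.0032 and -0.17 on the log2 scale. At an unadjusted p under 0.05 edgeR held 17 of the 48 (35.4%, against 24.4% of all genes), and after adjustment DESeq2 and limma-voom each called 7 (14.6%, against 9.62% and 6.88% of all genes). The 5 were Col25a1 (0.62 ± 0.17, adjusted p = 0.0452), Col26a1 (0.52), Col9a2 (0.26), Col20a1 (-0.71) and Col12a1 (-0.29). Without dKO male replicate 2, none of the 48 genes was called, and 15 genes of the whole table in place of 1081. None of the 48 was called either without dKO female replicate 2, dKO female replicate 3 or WT male replicate 1.

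Col25a1, a membrane-spanning collagen of neurons, was at 55.8, 52.5, 61.2, 71.7 and 150 CPM in the dKO libraries of day 10 and ran from 36.8 to 73.3 CPM (median 48.1) in the 6 WT libraries. The log2 change was 0.29 without the library at 150 CPM. Col26a1 was at 14.6, 21.6, 19.4, 14.3 and 22.0 CPM against 10.0 to 15.5 CPM (median 13.5), and its change was 0.34 without that library. Col20a1 was at 8.10, 3.84, 4.64, 8.79 and 4.58 CPM against 8.35 to 12.2 CPM (median 9.85), and its change was -0.53 without it. Col12a1 was at 42.4, 42.02, 43.0, 49.1 and 54.5 CPM against 51.3 to 62.5 CPM (median 58.0), and its change was -0.35 without it. Groups did not overlap for Col9a2 alone, whose change was 0.21 without that library and which was higher in dKO at 24.2 to 30.7 CPM against 21.9 to 23.9 CPM, where 1.99% of all genes had no overlap (1.04% higher, 0.947% lower). Col3a1 was at 91.3, 119, 120, 89.3 and 101 CPM in dKO and 93.8 to 126 CPM (median 108) in WT (log2 -0.08 ± 0.15, adjusted p = 0.776). Lum was at 3.04, 4.01, 4.08, 4.56 and 4.18 CPM against 3.40 to 4.91 CPM (median 4.21), so that the genes lowest in dKO at day 20 overlapped between the genotypes at day 10.

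The interaction of genotype and day asked whether the difference between the genotypes itself differed between the 2 days. It was called for 25 of the 48 genes, 17 toward a lower dKO level at day 20 and 8 toward a higher one, where 28.3% of all genes were called (14.7% and 13.6%). By class, 6 fibrillar collagens went lower and 1 higher, 4 basement membrane collagens lower, 5 other collagens lower and 6 higher, and 2 matrix proteins lower and 1 higher. Lum (-2.12 ± 0.25, adjusted p = 4.26e-06), Col3a1 (-1.71 ± 0.21, adjusted p = 2.52e-05), Col14a1 (-1.27) and Col15a1 (-1.15) had the most negative values. Col5a3 (1.49 ± 0.14, adjusted p = 4.31e-07), Col17a1 (1.44), Mgp (1.43 ± 0.21, adjusted p = 5.87e-05) and Col20a1 (1.14) had the most positive. Col1a1 was not called (-0.82 ± 0.32, adjusted p = 0.0652). Its WT libraries of day 10 were at 89.3, 188, 70.8, 80.9, 75.8 and 93.5 CPM, the value of 188 CPM belonging to female replicate 2. Col17a1, a membrane-spanning collagen of epithelia, was at 2.93, 1.196, 1.62, 3.56 and 0.446 CPM in dKO at day 10 and its value was 2.52 without male replicate 1 and 1.05 without male replicate 2, while the call was lost without WT male day 10 replicate 1 (1.03), with no filter on low counts and with counts of both strands. Without dKO male day 10 replicate 2, 13 of the 48 went lower and 8 higher.

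Collagen levels fell between day 10 and day 20 in WT. Of the 48 genes 29 fell and 6 rose with age, where 50.4% of all genes were called (24.9% lower, 25.5% higher). The median was -0.59 over the 48 genes and 0.01 over all genes. By class the medians were -0.74 for fibrillar, -0.48 for basement membrane and -0.58 for other collagens, and -0.55 for matrix proteins. Col2a1, the main collagen of cartilage, fell most (log2 -2.42 ± 0.23), followed by Col3a1 (-1.49), Col6a3 (-1.49) and Col26a1 (-1.39). Mgp (1.03 ± 0.14) and Col5a3 (1.02 ± 0.10) rose most.

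In dKO 33 of the 48 fell and 7 rose with age, where 61.6% of all genes were called (31.2% lower, 30.4% higher). Without dKO male day 10 replicate 2 the counts were 27 and 5. Col3a1 fell most (-3.20 ± 0.16), from a mean of 104 CPM ± 14.6 (SD, n = 5) to 11.4 CPM ± 3.72 (n = 6), against 109 ± 12.7 and 38.7 ± 3.70 in WT (n = 6 each). Lum fell by 3.06 on the log2 scale, from 3.98 CPM ± 0.563 to 0.497 CPM ± 0.166, against 4.22 ± 0.535 and 2.20 ± 0.413 in WT. Col5a3 rose by 2.51, from 7.23 CPM ± 1.42 to 42.1 CPM ± 6.41, against 6.18 ± 1.03 and 12.7 ± 0.820 in WT. Mgp rose by 2.46, from 6.52 CPM ± 0.638 to 36.3 CPM ± 6.39, against 8.08 ± 1.94 and 16.7 ± 1.85 in WT. For these 4 genes the direction of the change with age was the same in both genotypes. Without dKO male day 10 replicate 2 the values in dKO were -3.16 for Col3a1, -3.10 for Lum, 2.505 for Col5a3 and 2.51 for Mgp.

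Cell markers moved with age as well. Summed markers of meningeal and perivascular fibroblasts ran from 245 to 307 CPM at day 10 and 145 to 181 CPM at day 20 in WT, and from 227 to 266 CPM and 119 to 181 CPM in dKO. At day 10 most of each sum came from Igf2 (85.5 to 110 CPM) and Cemip (53.2 to 131 CPM). Of these 13 markers 6 fell in WT and 8 in dKO, and none rose. Over all genes tested 24.9% were called lower in WT and 31.2% in dKO (25.5% and 30.4% higher). The count in dKO includes dKO male day 10 replicate 2 and was not taken without it. Mural cell sums ran from 325 to 388 CPM and 270 to 318 CPM in WT, and from 335 to 374 CPM and 198 to 231 CPM in dKO. The summed myelin genes Mbp, Mog and Mag, markers of oligodendrocytes, ran from 2622 to 4984 CPM and 6060 to 7573 CPM in WT, and from 1765 to 2731 CPM and 5183 to 6109 CPM in dKO. Their part in the changes with age was not tested.

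**Figure D4:**
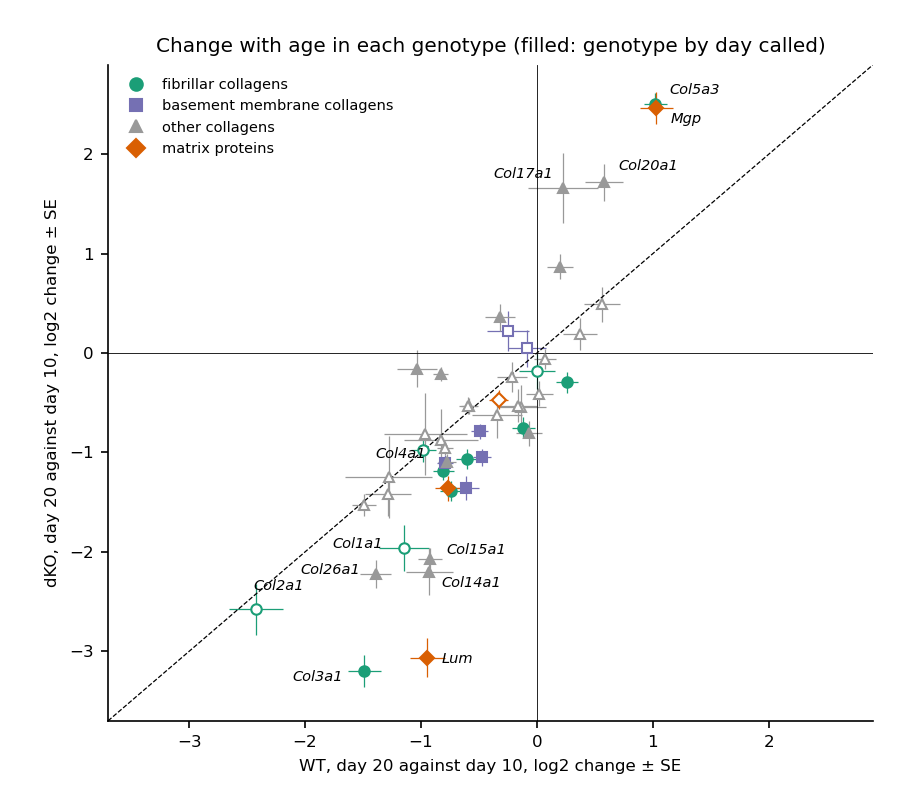
Log2 change from day 10 to day 20 in WT (horizontal axis) and in dKO (vertical axis), each ± SE, for the 48 genes by class, with filled symbols where the interaction of genotype and day was called and a dashed line where both changes are equal. Col3a1 (-1.49 in WT, -3.20 in dKO) and Lum (-0.94, -3.06) lie below the line, and Col5a3 (1.02, 2.51) and Mgp (1.03, 2.46) above it.

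The sexes were compared at each day. At day 20, 13 of the 48 genes were called in females (2 higher, 11 lower, where 10.4% of all genes were called, 5.17% higher and 5.18% lower) and 22 in males (5 higher, 17 lower, where 34.6% were called). Without dKO female replicate 1 the count in females was 8. Of the 24 genes called over both sexes 17 had the larger estimate in males, where the median size of the log2 change over all genes was also larger (0.295 in males, 0.192 in females). The interaction of genotype and sex was called for none of the 48 at day 20 by edgeR (6 at an unadjusted p under 0.05, or 12.5% against 14.9% of all genes, and 0 by DESeq2), so a difference between the sexes was not shown. The smallest p in it was that of Col15a1 (-0.79 in females, -1.45 in males, adjusted p = 0.175). Over all genes the interaction called 0 of 21657 (3220 at an unadjusted p under 0.05, 340 by DESeq2). At day 10 it called none of the 48 (8 at an unadjusted p under 0.05, or 16.7% against 11.5% of all genes, and 0 by DESeq2), but 8 without dKO male replicate 1, which leaves replicate 2 as the only dKO male library. At day 10, females had 1 call, Col12a1 (-0.47 ± 0.09, adjusted p = 0.0294, where 0.319% of all genes were called), and males had 0 (11 at an unadjusted p under 0.05, or 22.9% against 18.4% of all genes, 2 by DESeq2, which called 2.61% of all genes, and edgeR 0.0139%, 0.00923% higher and 0.00462% lower). In males that count was 13 without dKO replicate 1. WT males and females differed in none of the 48 by edgeR or DESeq2 (0 at an unadjusted p under 0.05 in either, where edgeR called 0.0693% of all genes, 0.0416% higher and 0.0277% lower in males).

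Genes that act on collagen were read at day 20 from lists of the pathway, whose counts stand beside the 19.2% of all genes called lower and 18.8% called higher. In collagen folding and modification, 7 of 20 fell and 3 rose (median -0.11). Serpinh1, the collagen chaperone HSP47, ran from 10.2 to 19.4 CPM (median 12.2) in dKO and 33.4 to 51.1 CPM (median 40.8) in WT, a log2 change of -1.62 ± 0.11 (adjusted p = 4.28e-09). P4ha1, a prolyl hydroxylase subunit, fell by 1.06 and Plod1, a lysyl hydroxylase, by 0.71, while P3h3 (0.70) and P3h1 (0.21), of the prolyl 3-hydroxylase family, and Sparc (0.36), a collagen-binding protein, rose. In procollagen cleavage and crosslinking, 3 of 13 fell and 3 rose (median -0.03). Pcolce, which enhances removal of the procollagen end, ran from 1.29 to 2.501 CPM (median 2.20) against 4.37 to 6.06 CPM (median 5.51), a log2 change of -1.38 ± 0.13 (adjusted p = 4.7e-08). Loxl1 fell by 1.07 and Tll1 by 0.50. Lox, the lysyl oxidase that crosslinks collagen and elastin, ran from 6.40 to 21.5 CPM (median 14.7) against 2.76 to 6.51 CPM (median 4.44), with a log2 change of 1.57 ± 0.17 (adjusted p = 6.77e-07) and groups that overlapped slightly. Adamts14 (2.92) and Adamts3 (0.32), procollagen proteases, rose.

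**Figure D5:**
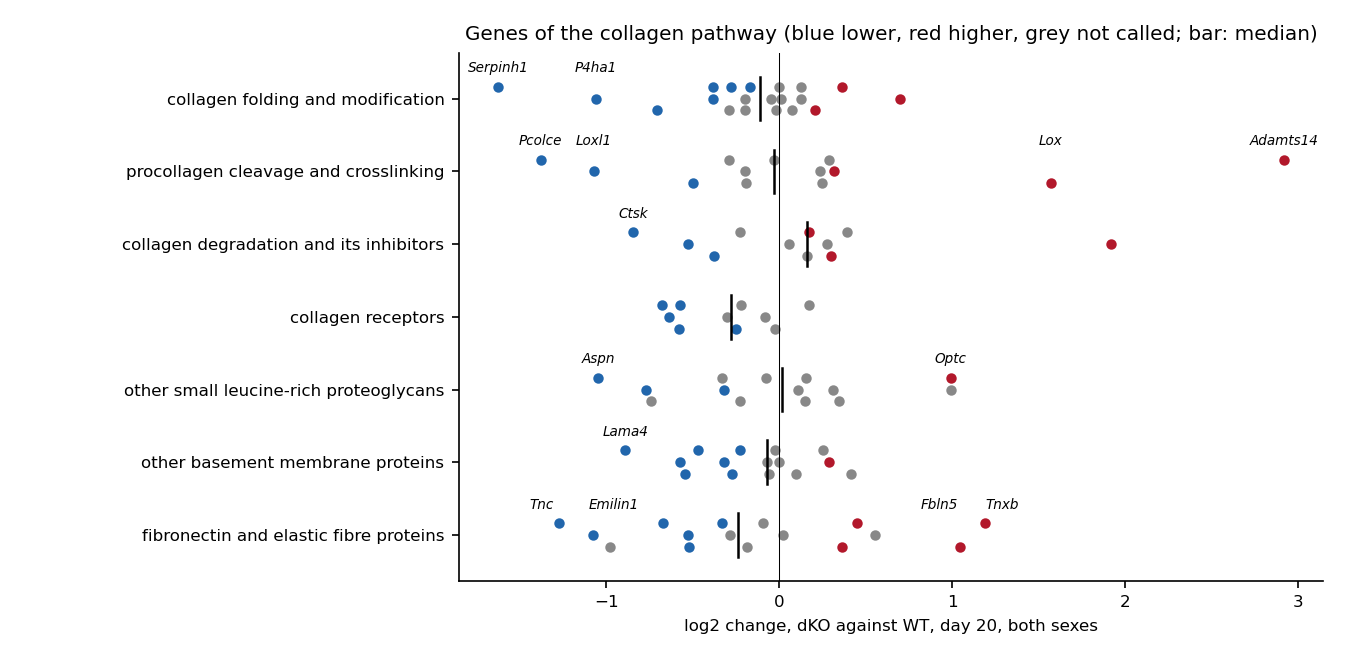
Log2 change of dKO against WT at day 20 over both sexes (horizontal axis) for each tested gene of 7 pathway lists (vertical axis), blue where lower, red where higher and grey where not called, with a bar at the median of each list. Serpinh1 (-1.62) and Pcolce (-1.38) lie at the left, Lox (1.57) and Adamts14 (2.92) at the right, and the medians lie between -0.28 and 0.16.

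Of the collagen receptors, 5 of 10 tested fell and none rose (median -0.28), among them Itga1 (-0.68) and Itgb1 (-0.25), which pair as a collagen-binding integrin, and the receptor kinase Ddr2 (-0.58). In collagen degradation and its inhibitors, 3 of 11 tested fell and 3 rose (median 0.16). Ctsk (-0.84), Fap (-0.53) and Mrc2 (-0.38) fell, and the inhibitors Timp4 (0.30) and Timp3 (0.17) rose. The collagenase gene Mmp13 rose too, at 0.302 CPM ± 0.174 (SD, n = 6) in dKO against 0.0746 CPM ± 0.0395 in WT, both near the level of a few counts. Of the other small leucine-rich proteoglycans, 3 of 14 tested fell, Aspn (-1.05), Ogn (-0.77) and Ecm2 (-0.32), and Optc (0.99) rose. Of the other basement membrane proteins, 7 of 15 fell and 1 rose, with the laminin chain Lama4 (-0.89), Nid2 (-0.54) and Hspg2 (-0.47) lower and Lama5 (0.29) higher. Of the fibronectin and elastic fibre proteins, 6 of 16 fell and 4 rose, with Tnc (-1.27), Emilin1 (-1.07) and Efemp1 (-0.53) lower and Tnxb (1.19), Fbln5 (1.05) and Fbn1 (0.36) higher.

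Markers of cell types that make these proteins were read beside them, against the same 19.2% and 18.8% of all genes at day 20. Of 13 markers of meningeal and perivascular fibroblasts, 6 fell and none rose at day 20 (median -0.49), among them the transporters Slc47a1 (-1.25) and Slc22a6 (-0.97). Their sum ran from 119 to 181 CPM in dKO and 145 to 181 CPM in WT, and none was at 0. At day 10 most of this sum came from Igf2 and Cemip. Of 11 endothelial markers 7 fell and none rose (median -0.29), with sums of 273 to 329 CPM against 343 to 363 CPM. Tek (-1.02) and Kdr (-0.65) had the smallest p. Of 12 mural cell markers 6 fell and 1 rose (median -0.28), with sums of 198 to 231 CPM against 270 to 318 CPM and Rgs5 at -1.29 and Myl9 at -0.88. Of 10 choroid plexus markers 6 fell (median -0.70), with sums of 493 to 889 CPM against 1193 to 1513 CPM, among them Sostdc1 (-1.66) and Enpp2 (-1.18). Enpp2 was still at 184 CPM in dKO male day 10 replicate 2, where Ttr was at 1.90 CPM. The other libraries of that day held 258 to 589 CPM of Enpp2. Sostdc1 was at 2.79 CPM there, within the 2.60 to 5.47 CPM of the other libraries of that day. These falls and the sum therefore do not measure this epithelium alone. All 5 erythrocyte markers fell (median -2.51), among them Hbb-bt (-3.42), with sums of 75.4 to 130 CPM against 316 to 669 CPM.

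Cartilage and bone make several of the same collagens. Of 6 tested cartilage markers Matn1 rose by 6.20 on the log2 scale and Cnmd (-1.70) and Cytl1 (-1.43) fell, and of 4 tested bone markers Alpl (-0.89) and Phex (-0.62) fell. The cartilage sum, over all 8 listed markers, ran from 36.4 to 52.9 CPM in dKO against 20.1 to 31.3 CPM in WT. The bone sum ran from 8.67 to 11.1 CPM against 12.8 to 17.2 CPM, with Mepe at 0 in both genotypes. None of 5 tested skeletal muscle markers was called, and of 3 tested Schwann cell markers Ncmap rose (1.41). Astrocyte markers gave 1 rise (Aldh1l1, 0.40) and 2 falls (Aqp4, -0.72, and Gja1, -0.28) of 5. Syt1 (-0.16) was the only neuronal marker called of 5, and none of 4 cerebellar markers was called. Of the oligodendrocyte markers Mbp (-0.22), Mog (-0.42) and Mag (-0.27) were not called at day 20, with the dKO sum at 5183 to 6109 CPM against 6060 to 7573 CPM. At day 10 Mbp (-0.57) and Mag (-0.58) were called lower in dKO and Mog (-0.71) was not, with sums of 1765 to 2731 CPM against 2622 to 4984 CPM. At that day 1.76% of all genes were called lower. Without dKO male day 10 replicate 2 nearly all day 10 calls over all genes were lost, and the calls of Mbp and Mag were not followed without it. The part of these markers in the falls of the collagens and matrix proteins was not tested.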

How the data were processed

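Raw counts per gene were used as the authors deposited them, 1 table per library with 50686 genes. STAR 2.5.2b, HTSeq and the build GRCm38.p5 are named per the submitters' processing notes; which of them counted, with its annotation, is not given in the sources used here. Libraries were stranded, per the labels' protocols, so the count column for the reverse strand (column 4) was taken; forward-strand totals were 5.22 to 7.46% of it. Entries that name no gene stayed out (no-feature reads 41.7 to 47.5%, unmapped 7.65 to 11.0%). Names and exon lengths came from GENCODE M21, which matched 50462 identifiers and not 224. Libraries with at least 1000000 gene counts entered (23 of 24); no 2 were identical.

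In R 4.3.3, edgeR 4.0.16 was used with filterByExpr by group (21657 genes), TMM scaling, robust glmQLFit with 8 group means and two-sided glmQLFTest; Benjamini-Hochberg adjustment ran over every gene tested. The test was also run on counts simulated from edgeR's own fitted spread. No library stood apart in them, so that run says nothing on the unstable calls at day 10. The members, lists and tests were chosen with earlier results of these data known. Library values were given for called members with a mean of at least 1 CPM, up to 4 per direction and class by p, plus Lum, Dcn, Bgn, Mgp, Col1a1, Col3a1 and Col4a1; of pathway lists up to 3 called genes per direction, of marker lists up to 2. One listed marker is not reported here, and its list's totals are given without it. Other genes were named after their values were seen. The alternatives tried were no filter, a mean of at least 1 CPM, RLE size factors, unstranded counts, DESeq2 1.42.0, limma-voom 3.58.1, all 24 libraries, only the groups compared, Col15a1 and Col18a1 moved between classes, and leaving out each library. Limits from counts cover counting error only.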

Additional observations from a re-analysis of the deposited data

Results flagged for a closer look

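Library values far from the rest of their group (Dixon's test at the 95% level within genotype and day) numbered 14 of 192 tests, or 7.29%, where chance gives about 5%. Of the 14, 6 belonged to dKO male day 10 replicate 2, with Col10a1 at 1.004 CPM, Col11a2 at 107 CPM, Col15a1 at 30.02 CPM, Col16a1 at 50.8 CPM and Col25a1 at 150 CPM above the 4 other dKO libraries of that day, and Col18a1 at 31.9 CPM below them. Both type I chains were high in WT female day 10 replicate 2, Col1a1 at 188 CPM and Col1a2 at 171 CPM. Col1a1 was also high in dKO female day 10 replicate 2, at 109 CPM. Col23a1 was low in WT female day 10 replicate 3, at 26.1 CPM. At day 20, Col5a1 was high in dKO female replicate 3 at 24.5 CPM, and Col6a6 in dKO female replicate 1 at 2.14 CPM. Lum was low in WT female day 20 replicate 3 at 1.43 CPM, and Mgp in WT female day 20 replicate 1 at 13.2 CPM, each still on its own side of every dKO library of that day.

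The difference between dKO and WT differed between day 20 and day 10 for 25 of the 48 genes by the interaction term in edgeR. Among fibrillar collagens the log2 value was -1.71 for Col3a1, -0.65 for Col5a2, -0.63 for Col11a2, -0.56 for Col27a1, -0.46 for Col11a1, -0.38 for Col1a2 and 1.49 for Col5a3. Among basement membrane collagens it was -0.75 for Col4a6, -0.57 for Col4a5, -0.31 for Col4a1 and -0.30 for Col4a2. Among other collagens it was -1.27 for Col14a1, -1.15 for Col15a1, -0.83 for Col26a1, -0.74 for Col8a1 and -0.32 for Col9a3, and 0.62 for Col12a1, 0.67 for Col19a1, 0.68 for Col18a1, 0.88 for Col9a1, 1.14 for Col20a1 and 1.44 for Col17a1. Of the matrix proteins, Lum was at -2.12, Bgn at -0.59 and Mgp at 1.43. Of these 25, 19 kept the call in every alternative tried.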

How the results depend on the processing

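No paired analysis was possible because the labels carry no replicate numbers. The replicate numbers used here were given in the order of the samples in the series. Of 129 named changes of the 48 genes, 98 kept direction and call in every alternative tried, 31 lost the call in at least 1 and 0 reversed. At day 20 over both sexes 20 of 24 calls were kept throughout, and Col4a2, Col7a1, Col19a1 and Col20a1 were not. At day 10 none of 5 was. For changes with age 29 of 35 in WT and 30 of 40 in dKO were kept. The count of genes higher at day 20 (5) was 3 with no filter on low counts, 11 when only the groups compared were fitted, and 3 to 7 when 1 library was left out. At day 10 the count higher (3) was 1 with no filter, 0 with only the groups compared, and 0 to 4 with 1 library left out. The count lower at day 10 (2) was 1 with no filter, 4 with DESeq2, 4 with limma-voom, 0 with only the groups compared, and 0 to 9 with 1 library left out. Over all genes the calls at day 10 (1081) were 2084 with DESeq2 and 6 with only the groups compared, and 64.8% of them were higher in dKO, 53.6% with DESeq2. Females at day 20 (13) had 24 with only the groups compared and 8 to 14 with 1 library left out; over all genes their 2242 calls became 4003. Females at day 10 (1) had 2 with DESeq2, 0 with only the groups compared and 0 to 4 with 1 library left out. Males at day 10 (0) had 2 with DESeq2 and 0 to 13 with 1 library left out. The interaction of genotype and sex (0 at either day) was called for 1 gene at day 20 with only the groups compared and for 0 to 8 at day 10 with 1 library left out. The cause of these shifts was not tested, except that fewer libraries enter where groups or libraries are left out. Where 1 dKO male library of day 10 remained, it was assumed to vary like the other groups. Depth limits Col10a1, whose means at day 20 were 0.240 CPM in dKO and 0.245 CPM in WT. They lie near 3 counts of the shallowest library of that day (0.189 CPM before TMM scaling).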
